A study of Gallus gallus with 12 samples.

Results

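The comparison described here is that of Se-methylselenocysteine (SeMC) alone with Control in resting chicken HD11 cells, that is, without lipopolysaccharide (LPS). It comprised the 3 SeMC libraries and the 3 Control libraries, 6 of the 12 libraries of an RNA-seq experiment that also held LPS and SeMC+LPS groups, and the libraries were chosen by their labels. The question was how SeMC by itself altered the transcriptome of HD11, a virus-transformed chicken macrophage-like line. SeMC cells were seeded in medium with 100 µM SeMC about 12 h before the challenge step and then received PBS in place of LPS, whereas Control cells received PBS and no SeMC. The challenge step lasted 6 h, after which the cells were lysed. Nothing in the labels says that the 3 replicates of a group were separate cultures, so each p-value measures the spread between these libraries, which may be technical, in 1 cell line at 1 dose and 1 time.

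SeMC is a selenium-containing amino acid found in plants such as garlic and broccoli, and cells can split it to release a methylated form of selenium. Selenium is best known in animal cells as part of selenocysteine, which is built into selenoproteins such as the glutathione peroxidases and thioredoxin reductases that reduce peroxides and oxidised thiols. In macrophages, bacterial products start inflammatory transcription through NF-κB, a family of dimers made of RELA, RELB, REL, NFKB1 and NFKB2 and held back by inhibitors of the NFKBIA type. NFKB2 encodes a precursor, p100, that acts as an inhibitor itself and is cut to the DNA-binding subunit p52.

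The total count per library was 14972385 to 17024392 in Control and 10656332 to 11531551 in SeMC, so the groups did not overlap in depth. The first principal component held 72.5% of the variance and separated the groups, and SeMC replicate 2 stood apart from the other SeMC libraries on the second (8.73%). All 13 macrophage markers examined were expressed, including CSF1R, SPI1, CD74 and IRF8, and of these only MARCO passed the test used below, with a lower level in SeMC. Their summed level was 4706 to 4987 CPM (counts scaled to a fixed library size) in Control and 4203 to 4477 CPM in SeMC. The summed levels of B cell, erythroid and thrombocyte, and fibroblast and epithelial markers were low but higher in SeMC. Those of T cell markers overlapped between the groups. The 4 B cell markers in the table, of which 2 had at most 3 counts in every library, summed to 0.608 to 0.937 CPM in Control and 1.32 to 2.77 CPM in SeMC, and the 4 erythroid and thrombocyte markers to 3.31 to 5.74 CPM and 6.57 to 9.78 CPM. JCHAIN, the 1 B cell marker tested, had only 0, 2 and 2 counts in Control and 20, 12 and 12 in SeMC. The 6 fibroblast and epithelial markers summed to 19.7 to 24.8 CPM in Control and 31.8 to 37.4 CPM in SeMC, while the 8 T cell markers summed to 61.8 to 69.7 CPM and 65.5 to 69.4 CPM. CD28 made up most of the T cell sum, with 52.3 to 58.8 CPM in Control and 51.7 to 58.0 CPM in SeMC. In bulk RNA, fewer cells of a type and less RNA per cell cannot be told apart, and the part that these differences play in the results was not tested.

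The SeMC counts of weakly expressed genes had a feature that was rarer in the other groups, and it bears on every result from low counts. MMP7, a matrix metalloproteinase, had counts of 1, 0 and 2 in Control and of 32, 16 and 64 in SeMC. LMOD1, an actin-binding protein of smooth muscle, had 2, 0 and 2 counts in Control and 107, 53 and 53 in SeMC, and the histone gene HIST1H2A4L2 had 0, 0 and 1 against 48, 80 and 80. In each of these genes the 3 SeMC counts were whole multiples, up to 12 times, of one number of at least 6, rounded down to whole counts. Of the 67 genes with at most 3 counts in every Control library and at least 10 in every SeMC library, 42 had such counts in SeMC. Of the 59 genes with the opposite pattern, 3 had such counts in Control. Over all genes with 10 to 200 counts in each library of a group, the share was 4.35% in SeMC (169 of 3888 genes), 2.68% in Control and 2.52% in LPS. It was 9.78% of the genes called higher in SeMC (84 of 859), 4.8% of those called lower and 2.49% of those not called. Where every library of a group had 10 or more counts of a gene and at least one had over 200, 2 of 8515 had such counts in SeMC, 3 of 9214 in Control and 0 of 8767 in LPS.

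The spread between the SeMC replicates moved in the same way. For genes with a mean of 20 to 200 counts, the median ratio of the variance of the 3 counts to their mean, which is about 0.693 for counting error alone, was 0.724 in SeMC where the level was 2- to 4-fold below Control. It was 1.17 where SeMC lay between 0 and 0.5 log2 units below Control, and 1.39 where it lay as far above. It reached 2.56 at log2 differences of 1 to 1.5, 5.09 at 2 to 3 and 7.70 at 3 to 5. In the LPS libraries, placed in the same bins by their own difference from Control, the ratio stayed between 1.43 and 2.13. The count tests share one trend of the spread across genes, so the adjusted p of a weakly expressed gene that was much higher in SeMC is less certain than its value says. How these counts arose was not tested, and the genes named first below therefore have a mean of at least 100 counts and none of them had SeMC counts that were whole multiples when the limit of 200 counts was lifted.

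**Figure D1:**
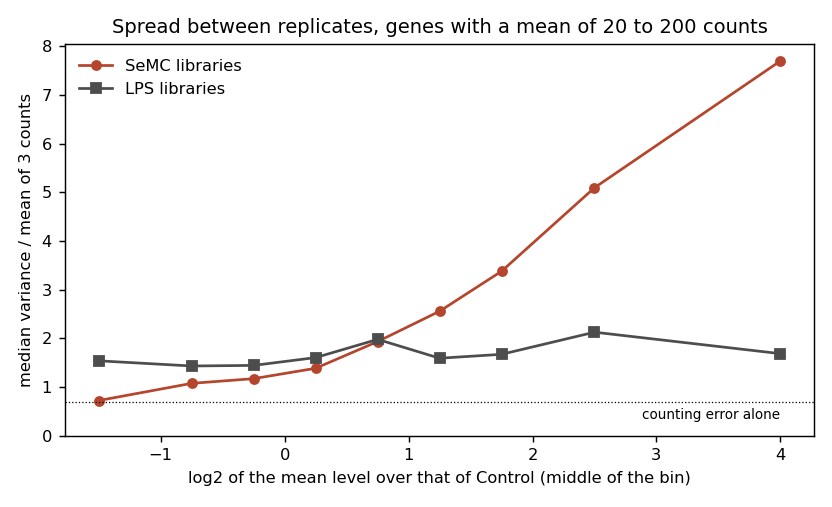
Median ratio of variance to mean of the 3 replicate counts (vertical axis) against the log2 difference of the mean level from Control (horizontal axis, middle of each bin), for genes with a mean of 20 to 200 counts. The ratio climbed from 0.724 to 7.70 in the SeMC libraries and stayed between 1.43 and 2.13 in the LPS libraries, and the dotted line marks the median ratio of 0.693 that counting error alone gives for 3 counts.

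A gene was called when it had an adjusted p under 0.05 in the quasi-likelihood test of edgeR, after Benjamini-Hochberg adjustment, and a fold change above 1.5. Of 13146 genes tested, 1850 were called (14.1%), of which 1117 were higher in SeMC (8.50% of those tested) and 733 were lower (5.58%). At an adjusted p under 0.05 with no fold-change minimum, 5172 genes passed (39.3%), of which 2664 were higher (20.3%) and 2508 lower (19.1%). The CPM of the groups did not overlap in 1800 of the 1850 genes called, but they did not overlap in 50.8% of all genes tested either. The calls lay mostly among weakly expressed genes. Among the 1072 genes with a mean of up to 20 counts, 300 were higher and 175 lower, a share of 44.3%, whereas among the 4529 genes with 500 to 2000 counts 58 were higher and 16 lower (1.63%). Only 12 higher and 9 lower genes were among the 1442 with a mean over 2000 counts. Restricted to a mean of at least 100 counts, 528 genes were called, with 312 higher and 216 lower. Without the genes whose SeMC counts are whole multiples, 1746 genes were called, with 1033 higher and 713 lower. The higher genes made up 60.4% of those called, 60.6% with RLE size factors and 63.4% with scaling to the total library size. Limma on quantile-normalized log2 counts, which changed the scaling, the model and the filter together, gave 801 higher and 1149 lower (41.1% higher).

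**Figure D2:**
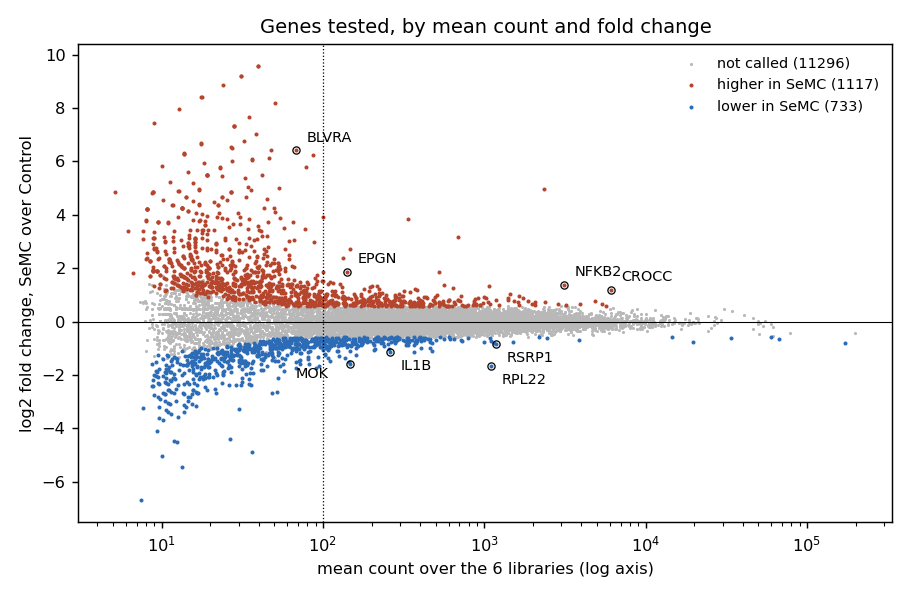
Log2 fold change of SeMC over Control (vertical axis) against the mean count over the 6 libraries (horizontal log axis) for the 13146 genes tested, with 1117 called higher in red, 733 called lower in blue and 11296 not called in grey. Most calls lie left of the dotted line at a mean of 100 counts, while NFKB2, CROCC, RPL22 and RSRP1 are among the strongly expressed genes that were called.

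NFKB2 had the smallest adjusted p of the named genes and was higher in SeMC. Its level on chromosome 6 (17699955 to 17708379, GRCg7b) was 144, 136 and 142 CPM in the 3 Control libraries and 339, 385 and 357 CPM in the SeMC libraries. The groups were far apart and the spread within each was small, and the fold change was 2.57 (log2 fold change of 1.36, standard error 0.0597, edgeR adjusted p = 1.1e-09). NFKB2 overlaps PSD and MIR3537 in the annotation, and no strand setting is given for the counting, so reads of these genes may be among its counts. NFKB2 was also the single gene of the 16161 in the table whose deposited SeMC+LPS counts were not the mean of its LPS and SeMC counts rounded down, and the cause of that exception was not tested.

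CROCC encodes rootletin, the fibre protein of the ciliary rootlet and of the link between centrioles. Its level was 261, 302 and 326 CPM in Control and 612, 750 and 652 CPM in SeMC, with no overlap and a fold change of 2.26. ACBD4, an acyl-CoA-binding protein that ties peroxisomes to the endoplasmic reticulum, rose from 30.2 ± 2.45 to 71.7 ± 6.46 CPM (SD, n = 3). Both genes were raised by more than the spread between replicates, although ACBD4 overlaps HEXIM1 and other genes.

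Among the less abundant raised genes, EPGN had 4.46, 5.76 and 4.91 CPM in Control and 17.0, 16.9 and 20.4 CPM in SeMC. It encodes epigen, a ligand of the epidermal growth factor receptor, and no Control library came near the SeMC libraries. USP21, a deubiquitinase, had 10, 9.50 and 9.81 CPM against 24.1, 26.1 and 24.6 CPM. The groups of USP21 were likewise far apart, and its SD was 0.249 CPM in Control and 1.01 CPM in SeMC.

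The orphan nuclear receptor gene NR2F1 rose 2.88-fold, the junction protein gene CGNL1 2.82-fold, CCDC84 2.66-fold and MTLN, which encodes a small mitochondrial membrane protein, 2.64-fold. TMEM184A rose 2.44-fold, the sorting nexin gene SNX21 2.43-fold and the potassium channel gene KCNH4 2.34-fold. The CPM of the groups did not overlap in any of these 7 genes, which was a condition for naming them. CEND1, a gene of neuronal cell cycle exit, had the largest increase of the non-overlapping genes whose mean count reached 100 (LOC identifiers aside), with 1.42, 3.55 and 4.73 CPM in Control and 19.4, 18.7 and 26.7 CPM in SeMC. CEND1 lies within the same stretch of chromosome 5 (623932 to 648538) as NLRP3 and LOC107049129, which were also called higher, and reads of these genes cannot be told apart where they overlap. OR14J1L81, an olfactory receptor gene, had 68.0, 63.4 and 18.5 CPM in Control and 120, 104 and 148 CPM in SeMC, so its Control replicate 3 was well below the other Control libraries.

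Under the same limits on mean count, overlap and name, the largest decrease was in RPL22, which encodes a protein of the large ribosomal subunit. Its level on chromosome 21 (630709 to 633432) was 146, 108 and 92.5 CPM in Control and 40.3, 29.8 and 39.1 CPM in SeMC. Every SeMC library was below every Control library, at 0.316 of the Control level (log2 fold change of -1.66, standard error 0.141, edgeR adjusted p = 1.3e-06). MOK, a protein kinase related to the MAP kinases and known from cilia, had 15.4, 13.7 and 16.1 CPM in Control and 4.85, 4.81 and 5.55 CPM in SeMC. ABCB11, the bile salt export pump of the liver, had 31.7, 39.0 and 36.1 CPM against 16.7, 16.3 and 15.3 CPM. MOK overlaps WDR20, and ABCB11 overlaps 2 LOC genes.

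RSRP1, an arginine- and serine-rich protein gene, had the smallest adjusted p of the genes that fell (edgeR, 2.9e-07). Its level was 106, 108 and 110 CPM in Control and 60.1, 59.7 and 62.1 CPM in SeMC, a small spread on both sides. RSPO1, an enhancer of WNT signalling, fell from 10.1 ± 0.989 to 4.28 ± 0.366 CPM (SD, n = 3). ROMO1, a small protein of the inner mitochondrial membrane, fell from 45.6 ± 10.4 to 21.2 ± 2.15 CPM (SD, n = 3), and KLHL14 from 24.5 ± 1.33 to 12.0 ± 0.379 CPM (SD, n = 3). ANKRD16, L3HYPDH, an enzyme of hydroxyproline breakdown, CCDC73 and PCYT1B, an enzyme of phosphatidylcholine synthesis, were at 0.427 to 0.530 of the Control level.

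**Figure D3:**
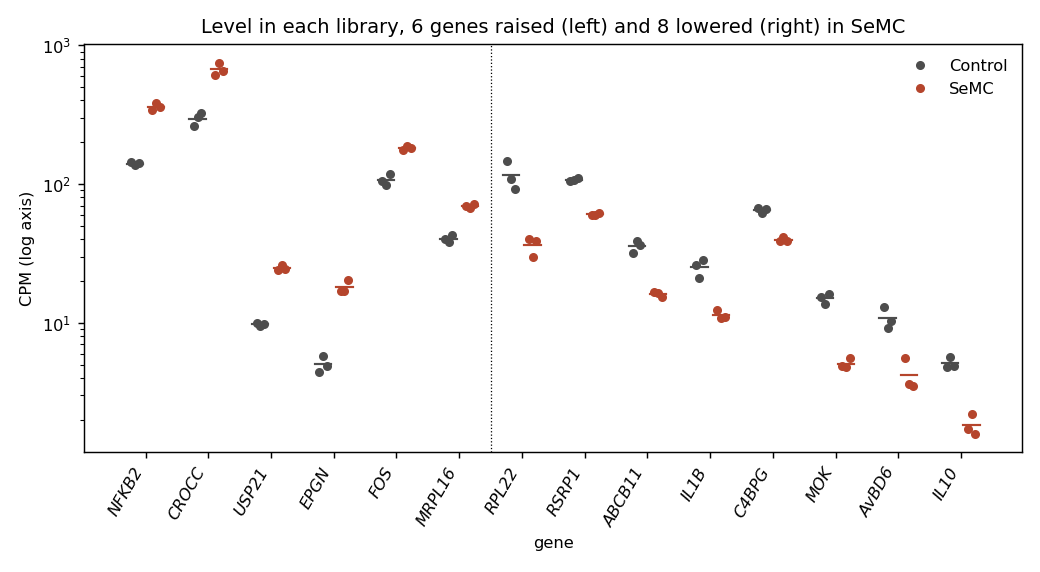
CPM of 14 named genes in each library on a log axis, with Control in grey, SeMC in red and a horizontal bar at each group's mean (n = 3). The 6 genes on the left were higher in every SeMC library than in every Control library, by 2.57-fold in NFKB2 and 2.26-fold in CROCC, and the 8 on the right were lower in every SeMC library, with RPL22 at 0.316 of the Control level.

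NFKB2 was the one gene called in the NF-κB list. Of 22 NF-κB subunits, inhibitors and regulators tested, 1 was higher and none lower (4.55% called, beside 14.1% of all genes). Most of the 22 had a mean of at least 500 counts, where 1.63% (500 to 2000) and 1.46% (above 2000) of all genes were called. The median log2 fold change of the list was -0.01. At an adjusted p under 0.05 alone, 5 were higher and 7 lower (22.7% and 31.8%), beside 20.3% and 19.1% of all genes. All of these but NFKB2 changed by less than 1.5-fold. RELA, the activating subunit p65, had 29.1, 29.4 and 37.1 CPM in Control and 36.9, 51.0 and 43.6 CPM in SeMC, a log2 fold change of 0.45. Control replicate 3 overlapped the lowest SeMC library in RELA. TNFAIP3, a deubiquitinase that restrains the pathway, had a log2 fold change of 0.43, whereas the inhibitors NFKBIA and NFKBIE had -0.32 and -0.38 and the subunit REL -0.28.

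Among 25 cytokines, chemokines and their receptors tested, 3 were higher and 3 lower (24.0% called, beside 14.1% of all genes). The median log2 fold change was 0.11. IL1B, the main inflammatory cytokine of the interleukin 1 family, had 26.1, 21.0 and 28.5 CPM in Control and 12.4, 10.8 and 10.9 CPM in SeMC. The groups were well separated, at a log2 fold change of -1.15 (standard error 0.127, edgeR adjusted p = 1.3e-05). IL1B overlaps LOC107054991. IL10, an anti-inflammatory cytokine, also fell, with 4.8, 5.69 and 4.91 CPM in Control and 1.73, 2.22 and 1.59 CPM in SeMC. IL1R2, the decoy receptor that binds interleukin 1 without signalling, rose from 7.61 ± 0.91 to 13.3 ± 0.628 CPM (SD, n = 3). The other 3 called were EPGN, the chemokine gene CCLI7 (log2 fold change of 1.51) and the growth factor gene HBEGF (-1.42), the last 2 with means of 20.5 and 17.5 counts.

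Lists of innate defence genes held more lowered than raised members. Of 35 interferon-response genes tested, 7 were lower and none higher, beside 5.58% lower and 8.50% higher among all genes, and the median log2 fold change was -0.08. Among the 7, MX1, RSAD2 and IFITM5 had means of 68.8, 53.8 and 47.5 counts, where lower calls were commoner. Of all genes, 198 of 1240 were lower at means of 20 to 50 counts, 144 of 942 at 50 to 100 and 191 of 3921 at 100 to 500. IFIT5, an RNA-binding antiviral protein, had 9.79, 11.2 and 9.52 CPM in Control and 5.80, 5.83 and 4.4 CPM in SeMC. MX1, an antiviral GTPase, fell from 6.22 ± 0.542 to 3.68 ± 0.363 CPM (SD, n = 3), IFI27L2 fell from 13.6 ± 1.86 to 8.03 ± 1.07 CPM (SD, n = 3), and RSAD2, the antiviral enzyme viperin, from 5.61 ± 0.531 to 1.78 ± 0.264 CPM (SD, n = 3). RSAD2 had SeMC counts of 24, 18 and 18, which are multiples of 6. The transcription factor gene IRF1 (-0.70), SAMD9L (-0.59) and IFITM5 (-1.01) were the others that fell, as log2 fold changes.

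Of 19 antimicrobial proteins tested, 4 were lower and none higher (21.1%, beside 5.58% lower among all genes). The median log2 fold change was -0.12. At an adjusted p under 0.05 alone, 7 were lower and 2 higher. The 2 higher were the abundant cathelicidin genes CATH1 (log2 fold change of 0.46, mean of 30516 counts) and CATH2 (0.31, 18818 counts). AvBD6, a beta-defensin that kills bacteria, had 13.1, 9.17 and 10.3 CPM in Control and 5.54, 3.61 and 3.52 CPM in SeMC. AvBD3, of the same family, had 8.78, 10.4 and 10.2 CPM against 5.37, 5.83 and 6.52 CPM, and neither gene's groups overlapped. The cathelicidin gene CATHB1 (log2 fold change of -1.62) and the lysozyme G-like gene LYGL (-1.69) were lower at means of 14.2 and 19.3 counts. Of all genes with a mean of up to 20 counts, 175 of 1072 were lower. Of 32 pattern recognition genes, 1 was higher and 4 were lower (15.6% called, beside 14.1% of all genes). Most of the 32 had a mean of at least 500 counts, where 1.63% (500 to 2000) and 1.46% (above 2000) of all genes were called. LY96, the MD-2 protein that presents LPS to TLR4, had 22.2, 24.6 and 21.9 CPM in Control and 14.3, 15.5 and 15.1 CPM in SeMC, and its adaptor TIRAP fell from 12.2 ± 1.01 to 8.00 ± 1.26 CPM (SD, n = 3). TLR3, the receptor of double-stranded RNA, fell from 6.51 ± 1.15 to 3.67 ± 0.373 CPM (SD, n = 3), and TLR5, the flagellin receptor, was lower at a mean of 15.8 counts. NLRP3, the inflammasome sensor, rose from 15.4 ± 2.70 to 24.9 ± 1.87 CPM (SD, n = 3) but overlaps CEND1 and LOC107049129. LY96 was no longer called without SeMC replicate 1 (log2 fold change of -0.58) or Control replicate 2 (-0.56), nor TIRAP without replicate 1 of SeMC (-0.48) or Control (-0.54).

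Phagocytic and scavenger receptors changed in both directions, with 3 higher and 3 lower of 21 (28.6% called, beside 14.1% of all genes). TIMD4, which binds the phosphatidylserine of dying cells, had 11.7, 12.9 and 11.3 CPM in Control and 5.02, 5.83 and 5.81 CPM in SeMC. FCER1G, the signalling chain of Fc receptors, fell from 25.3 ± 5.12 to 15.4 ± 1.96 CPM (SD, n = 3), and the scavenger receptor gene MARCO from 8.00 ± 1.12 to 4.96 ± 0.438 CPM (SD, n = 3). The 3 higher members, STAB2, MEGF11 and ITGB3, had means of 16.7 to 22.3 counts. In antigen presentation 1 of 25 was higher and 3 were lower (16.0% called, beside 14.1% of all genes). BLB2, a class II beta chain, had 346, 279 and 346 CPM in Control and 511, 563 and 452 CPM in SeMC, while BLB1, a second class II beta chain, was lower at a mean of 16.2 counts, and since the paralogs are alike the assignment of reads between them is uncertain. ICOSLG, a costimulatory ligand, fell from 30.4 ± 2.85 to 16.3 ± 1.5 CPM (SD, n = 3). The complement regulator CFI was the 1 complement gene of 14 called (7.14%, beside 14.1% of all genes), and it was lower. Its SeMC counts of 25, 25 and 33 are whole multiples of one number, rounded down. C4BPG, annotated as a C4b-binding protein and not in that list, fell from 65.3 ± 2.95 to 39.7 ± 1.59 CPM (SD, n = 3). The call of BLB2 was lost without replicate 2 of Control (log2 fold change of 0.55) or of SeMC (0.57), and that of FCER1G without Control replicate 1 (-0.58).

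No selenoprotein transcript was called. Of all genes 14.1% were called, but 13 of the 17 selenoproteins tested had a mean of at least 500 counts, and at 500 to 2000 counts and above 2000 counts only 1.63% and 1.46% of all genes were called. The absence of calls is therefore near the background at that level. The median log2 fold change of the 17 was 0.01, with 4 lower at an adjusted p under 0.05 alone and none higher. Of these 4, SELENOP1, the selenium transport protein, had -0.58, the methionine sulfoxide reductase MSRB1 -0.30, SELENOI -0.22 and SELENOF -0.17 as log2 fold changes. GPX1, the cytosolic glutathione peroxidase, had 2117, 1912 and 2108 CPM in Control and 1891, 1894 and 1861 CPM in SeMC, a difference of -0.12 on the log2 scale with an edgeR adjusted p of 0.12. TXNRD1, the cytosolic thioredoxin reductase, had 123, 124 and 120 CPM in Control and 134, 136 and 124 CPM in SeMC, with a log2 fold change of 0.10 (edgeR adjusted p = 0.18). TXN2, the mitochondrial thioredoxin, had 71.1, 66.1 and 75.1 CPM in Control and 77.3, 94.6 and 81.8 CPM in SeMC. All SeMC libraries of TXN2 were above the Control libraries, but the log2 fold change of 0.26 (standard error 0.079, edgeR adjusted p = 0.018) was below the 1.5-fold minimum.

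The list of genes for making and inserting selenocysteine, which also held endocytic receptors, had 1 lower gene of 12 tested (8.33%, beside 5.58% lower among all genes). That gene was the endocytic receptor gene LRP2, at a mean of 39.5 counts, and the 11 other members were not called. SEPSECS, the enzyme that forms selenocysteine on its transfer RNA, had 75.2, 70.5 and 68.8 CPM in Control and 91.9, 96.6 and 96.0 CPM in SeMC, with no overlap and a log2 fold change of 0.41, below the minimum. SCLY, the lyase that releases selenium from selenocysteine, had a log2 fold change of 0.47 and TRNAU1AP, which binds the selenocysteine transfer RNA, of 0.51, and both also had an adjusted p under 0.05. SECISBP2, which binds the selenocysteine insertion element, had -0.24 and SEPHS1 -0.26.

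Of 45 genes of the thioredoxin and glutathione systems and of NRF2, the regulator of the antioxidant response, 5 were higher and 1 was lower, with a median log2 fold change of 0.00. These calls were 13.3% of the list, near the 14.1% among all genes. PRDX4, the peroxiredoxin of the endoplasmic reticulum, had 27.2, 18.6 and 22.8 CPM in Control and 39.9, 38.2 and 40.3 CPM in SeMC. CHAC1, which degrades glutathione, had 15.9, 14.2 and 25.8 CPM against 31.0, 28.7 and 34.4 CPM, its Control replicate 3 lying closer to the SeMC libraries than to the other Control libraries. The glutathione transferase gene GSTT1 rose from 8.07 ± 1.58 to 13.2 ± 0.896 CPM (SD, n = 3), and MAFF, a small partner protein of NRF2, from 29.3 ± 5.06 to 47.6 ± 3.35 CPM (SD, n = 3). BLVRA, biliverdin reductase, had 2 counts in each Control library and 80, 188 and 134 counts in SeMC, which are whole multiples of one number, so no fold change is given. MGST3 was the gene that fell (log2 fold change of -0.61). GSTT1 and MAFF lost their calls without Control replicate 1 (log2 fold changes of 0.55 and 0.56) and CHAC1 without Control replicate 2 (0.58).

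In sulfur amino acid metabolism 1 of 25 genes was higher and 1 lower (8.00% called, beside 14.1% of all genes). CTH, the lyase that makes cysteine from cystathionine, had 4.66, 3.88 and 4.02 CPM in Control and 7.79, 6.10 and 10.4 CPM in SeMC. ADI1, of the methionine salvage pathway, had 24.0, 27.6 and 26.8 CPM in Control and 17.0, 16.6 and 15.8 CPM in SeMC. Genes of the amino acid response had 3 higher and 1 lower of 22 (18.2% called, beside 14.1% of all genes). Their median log2 fold change was 0.18. ALDH1L2, a mitochondrial folate enzyme, rose from 4.43 ± 0.661 to 7.29 ± 2.07 CPM (SD, n = 3). Its call was lost without SeMC replicate 1, Control replicate 1 or Control replicate 3, at log2 fold changes of 0.53, 0.60 and 0.73. The glycine transporter gene SLC6A9 and the serine synthesis gene PSAT1 were higher, and PSPH of the same pathway was lower, all at means below 50 counts. None of 30 genes of the unfolded protein response, 23 heat shock proteins and chaperones or 19 transfer RNA synthetases was called. Most of these genes had a mean of at least 500 counts. Of all genes, only 1.63% were called at 500 to 2000 counts and 1.46% above 2000, so the absence of calls is near the background.

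More genes of cytosolic ribosomal proteins were lower than higher in SeMC, mostly by small amounts. Of 68 tested, 2 were called and both were lower, RPL22 and RPS27, and 28 were lower and 1 higher at an adjusted p under 0.05 alone, beside 19.1% lower and 20.3% higher among all genes. The median log2 fold change was -0.16, against 0.00 over all genes. RPS27 had 210, 147 and 206 CPM in Control and 129, 117 and 129 CPM in SeMC, with Control replicate 2 nearest to the SeMC libraries. It was not called without Control replicate 1, Control replicate 3 or SeMC replicate 2, at log2 fold changes of -0.50, -0.52 and -0.54. RPS15A and RPL38 had log2 fold changes of -0.49 each. Mitochondrial ribosomal proteins had 2 higher and none lower of 73 (2.74% called, beside 14.1% of all genes), with a median of 0.04. MRPL16 had 40.3, 38.0 and 42.6 CPM in Control and 69.1, 67.4 and 72.1 CPM in SeMC, and MRPL49 rose from 5.65 ± 0.667 to 9.34 ± 1.2 CPM (SD, n = 3).

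Cholesterol synthesis and transport also had more lower than higher genes, and no lower one passed the fold-change minimum. Of 28 tested, 16 were lower and 4 higher at an adjusted p under 0.05 alone (57.1% and 14.3%). Among all genes these shares were 19.1% and 20.3%. The median log2 fold change of the list was -0.23. SQLE, the squalene epoxidase, had 231, 224 and 218 CPM in Control and 163, 154 and 156 CPM in SeMC, a log2 fold change of -0.51 with no overlap. STARD4, a sterol carrier, had -0.56 and NSDHL, a late enzyme of the pathway, -0.50. The 1 gene of the list that was called was ABCA1, which exports cholesterol from the cell, and it was higher with 125, 123 and 131 CPM in Control and 185, 183 and 206 CPM in SeMC. ABCA1 was just below the minimum without Control replicate 2 (0.58) or SeMC replicate 3 (0.55). SREBF1, a transcription factor of lipid synthesis, had a log2 fold change of 0.43. FASN, the fatty acid synthase, overlapped between the groups. Of 42 genes of fatty acid metabolism 2 were higher (4.76%, beside 8.50% higher among all genes), LIPE and PDK4, both at means below 50 counts.

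**Figure D4:**
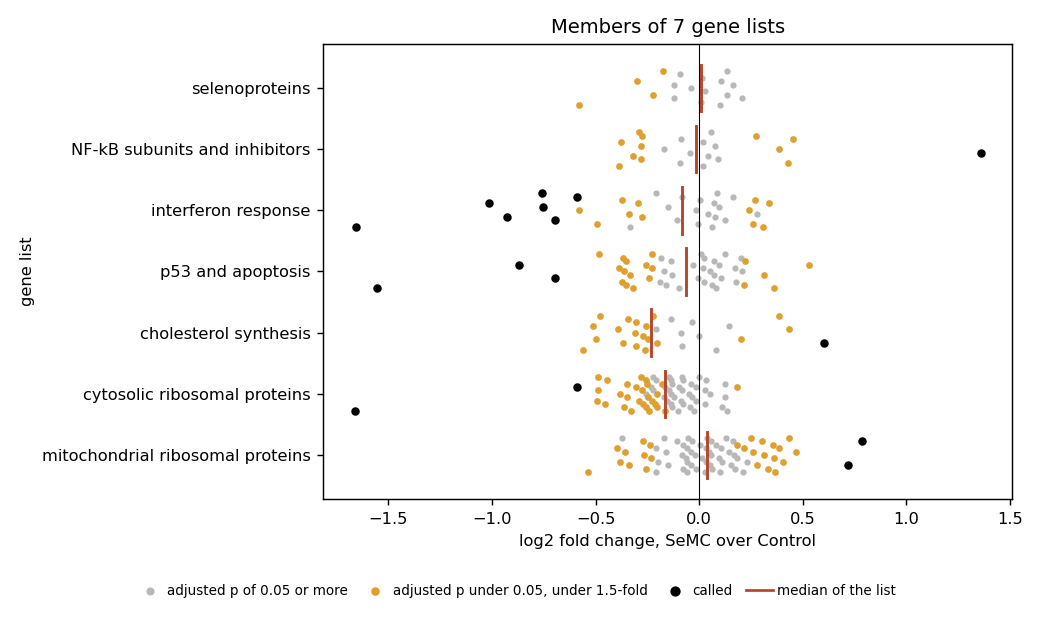
Log2 fold change of SeMC over Control (horizontal axis) of each tested member of 7 gene lists (rows), with genes called in black, genes with an adjusted p under 0.05 but under 1.5-fold in orange, other genes in grey and the list's median as a red line. The medians of cholesterol synthesis (-0.23) and of cytosolic ribosomal proteins (-0.16) lie left of 0, and NFKB2 is the lone black point of its list at 1.36.

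Genes of the p53 response and apoptosis had no higher and 3 lower members of 46 (6.52%), beside 5.58% lower among all genes. At an adjusted p under 0.05 alone, 16 were lower and 5 higher (34.8% and 10.9%), beside 19.1% and 20.3% of all genes. BCL2A1, an inhibitor of cell death and known target of NF-κB, had 13.6, 14.1 and 12.1 CPM in Control and 8.4, 6.38 and 6.96 CPM in SeMC. CFLAR, which blocks caspase activation at death receptors, had 22.6, 21.6 and 18.3 CPM against 11.9, 12.6 and 14 CPM, whereas PMAIP1, which promotes cell death, fell at a mean of 22.8 counts. Few genes of the cell cycle were called, 1.72% of those for DNA replication and 3.70% of those for mitosis. Many of them had a mean of at least 500 counts. Of all genes, 1.63% were called at 500 to 2000 counts and 1.46% above 2000, so these shares are not below the background at that level. CCNE1, cyclin E, was the 1 gene lower of 58 for DNA replication, and it fell from 9.94 ± 0.169 to 6.39 ± 0.892 CPM (SD, n = 3). CENPF and KIF18A were the 2 lower of 54 for mitosis. CENPF had 98.9, 172 and 137 CPM in Control and 91.7, 68.5 and 81.1 CPM in SeMC, and its Control replicate 1 lay near the highest SeMC library. KIF18A fell from 39.5 ± 5.67 to 24.9 ± 0.824 CPM (SD, n = 3). Without Control replicate 2, CENPF and KIF18A had log2 fold changes of -0.56 and -0.55 and were not called, and without SeMC replicate 2 CCNE1 had -0.53 and was not called.

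Of 36 immediate early genes, 4 were higher and 3 lower (19.4% called, beside 14.1% of all genes). FOS had 105, 98.3 and 119 CPM in Control and 177, 188 and 181 CPM in SeMC, with no overlap and little spread within SeMC. GADD45B, a stress-induced gene, rose from 13.7 ± 2.49 to 21.8 ± 2.79 CPM (SD, n = 3), and SOCS1, an inhibitor of cytokine signalling, fell from 4.76 ± 0.555 to 2.84 ± 0.516 CPM (SD, n = 3). Among 46 macrophage transcription factors and regulators, ID1 rose from 7.33 ± 0.626 to 14 ± 2.94 CPM (SD, n = 3), KLF6 fell from 7.0 ± 0.749 to 4.39 ± 1.37 CPM (SD, n = 3), and BATF and NR4A2 fell at means below 50 counts. In lysosome and autophagy 1 of 63 was higher and 1 lower (3.17% called). Of all genes 14.1% were called, and 1.63% of those with a mean of 500 to 2000 counts. GAA, the lysosomal glucosidase, had 45.7, 44.0 and 52.4 CPM in Control and 70.5, 75.7 and 67.5 CPM in SeMC, and ATG7, an enzyme needed for autophagosome formation, had 36.1, 32.6 and 32.3 CPM against 20.1, 19.8 and 19.6 CPM. PFKL, phosphofructokinase of the liver type, rose from 52.1 ± 2.43 to 79.8 ± 1.26 CPM (SD, n = 3) and was 1 of 3 higher of 40 genes of glycolysis and the hypoxia response, and SRSF5, a splicing factor, was the 1 higher of 54 spliceosome and SR proteins, with 27.9 ± 1.55 CPM in Control and 47.8 ± 2.50 CPM in SeMC (SD, n = 3). Several of these calls rested on single libraries. GAA lost its call without Control replicate 1 (0.56), Control replicate 2 (0.53) or SeMC replicate 2 (0.54), GADD45B without replicate 2 of Control (0.55) or SeMC (0.57), and PFKL without Control replicate 2 (0.58). KLF6 and SOCS1 each lost their calls without any of 4 libraries, both without replicate 1 of either group and Control replicate 2, KLF6 also without SeMC replicate 3 and SOCS1 without SeMC replicate 2, at log2 fold changes of -0.50 to -0.68 and of -0.65 to -0.76.

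Adhesion and matrix genes had 7 higher and 3 lower of 40, beside 8.50% higher and 5.58% lower among all genes. Of those called, 5 had a mean under 50 counts, where calls were commoner, and 1 had SeMC counts that were whole multiples. The fibrillar collagen gene COL1A1 had 9.52, 7.5 and 10.9 CPM in Control and 13.7, 18.4 and 13.8 CPM in SeMC, beside the higher sum of fibroblast and epithelial markers given above, of which it is one. COL5A1 rose from 3.62 ± 0.612 to 6.18 ± 0.612 CPM (SD, n = 3) and the protease inhibitor gene TIMP3 from 4.43 ± 1.27 to 7.69 ± 0.333 CPM (SD, n = 3), while the urokinase gene PLAU fell from 5.49 ± 0.328 to 3.11 ± 0.24 CPM (SD, n = 3). Centrosome and cilium genes had 5 higher and 4 lower of 82, with CFAP70 at 2.46 ± 0.285 CPM in Control and 6.54 ± 0.649 CPM in SeMC, and IFT46 at 8.17 ± 1.16 and 3.10 ± 0.833 CPM (SD, n = 3). Of the centrosome and cilium genes called, 4 had a mean under 50 counts and 1 had SeMC counts that were whole multiples. TGF-β signalling had 3 higher and 4 lower of 32 (21.9% called, beside 14.1% of all genes), 2 of them at a mean under 50 counts. Among those called were SMAD3 with 17.0 ± 1.65 and 26.2 ± 1.37 CPM and BMP4 with 7.59 ± 1.07 and 4.59 ± 0.373 CPM (SD, n = 3). Of 11 NADPH oxidase genes tested, 1 was higher, at a mean under 50 counts, and 1 was lower (18.2% called, beside 14.1% of all genes). The lower one was VAV2, an exchange factor upstream of the oxidase, which fell from 24.9 ± 1.53 to 16.3 ± 1.06 CPM (SD, n = 3). COL1A1 lost its call without replicate 2 of Control (log2 fold change of 0.58) or SeMC (0.56), SMAD3 without Control replicate 1 (0.55), and VAV2 without SeMC replicate 1 or Control replicate 3 (-0.56 each). None of 37 proteasome genes, 22 zinc and copper transporters or 13 housekeeping genes was called, and ACTB had 3973, 4143 and 4054 CPM in Control and 4215, 4199 and 3871 CPM in SeMC. Of all genes with a mean of 500 to 2000 counts only 1.63% were called, so an absence of calls among abundant genes is near the background.

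**Figure D5:**
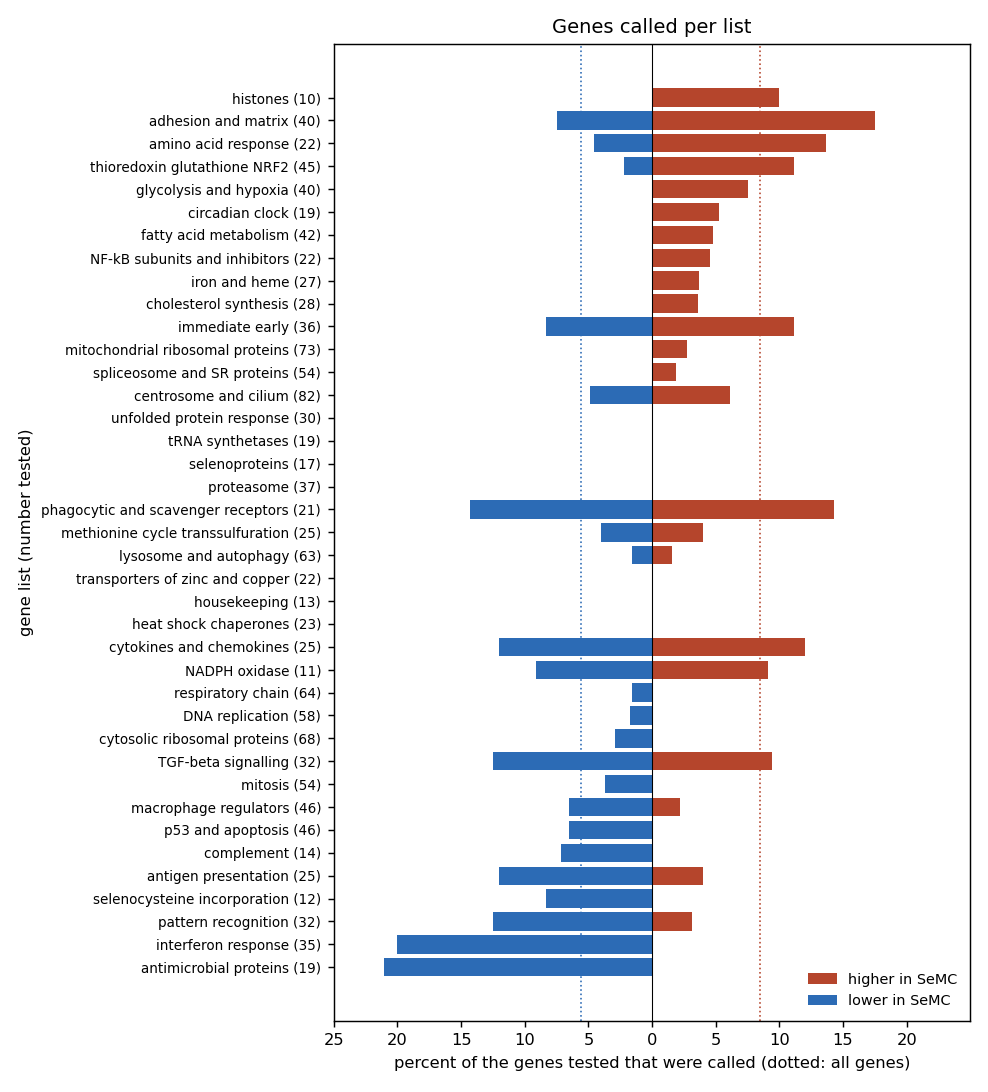
Percent of the tested genes of each list called higher (red, to the right) or lower (blue, to the left) in SeMC, for lists with at least 10 genes tested, whose number stands beside each name; the dotted lines mark the shares over all genes (8.50% higher and 5.58% lower). Interferon-response genes (7 lower of 35) and antimicrobial proteins (4 lower of 19) have bars to the left alone, and selenoproteins have none.

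Protein-coding transcripts of the mitochondrial genome took a smaller share of the counts in SeMC, above all in 1 library. The 13 protein-coding genes took 5.18%, 5.60% and 4.94% of the counts in Control and 4.56%, 2.98% and 4.07% in SeMC. All SeMC libraries were below the Control libraries, with replicate 2 farthest (exact permutation test, two-sided p = 0.1, the smallest that 3 against 3 libraries allow). Of these 13 genes 4 were called, all lower, beside 5.58% lower among all genes. Most of the 13 had a mean over 2000 counts, where 9 of all 1442 genes were lower, ATP6, CYTB and ND5 among them. ATP8, a subunit of the ATP synthase, had 38.0, 40.8 and 36.4 CPM in Control and 23.8, 10.8 and 23.7 CPM in SeMC. ATP6, of the same enzyme and overlapping ATP8, had 5565, 6650 and 5535 CPM against 4542, 2736 and 3856 CPM. CYTB and ND5 of respiratory complexes III and I were the others. Without SeMC replicate 2, the log2 fold changes of ATP6, CYTB and ND5 went from -0.67, -0.59 and -0.60 to -0.49, -0.37 and -0.34 and these 3 genes were not called. Without Control replicate 2 they had -0.58, -0.55 and -0.48 and were not called either. Of 64 nuclear genes of the respiratory chain, NDUFA1 was lower and none was higher (1.56% called, beside 14.1% of all genes). NDUFA1 was not called without SeMC replicate 2 (-0.37), Control replicate 1 (-0.52) or Control replicate 3 (-0.58).

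The shares of the counts from ribosomal RNA and small RNA genes did not overlap between the groups. Nuclear ribosomal RNA genes took 1.63%, 1.94% and 1.65% of the counts in Control and 1.00%, 1.02% and 1.03% in SeMC, with no overlap. Genes of miRNA, snoRNA, snRNA and tRNA summed to 219 to 227 CPM in Control and 317 to 366 CPM in SeMC. The exact permutation p was 0.1 for each. Of 25 miRNA genes tested 16 were higher and 1 lower, of 61 snoRNA genes 23 were higher and 5 lower, and of 10 mitochondrial tRNA genes 7 were higher and 1 lower. Their counts were low, with median means of 19.2 counts for miRNA, 17.2 for snoRNA and 41.0 for mitochondrial tRNA genes. The shares called were 68.0%, 45.9% and 80.0%, beside 44.3% of all genes with a mean of up to 20 counts and 41.9% of those with 20 to 50, so the share of snoRNA genes called is near that of all genes at their level. MIR1598 had 0, 2 and 0 counts in Control and 77, 38 and 77 in SeMC, again whole multiples of one number rounded down, and MIR7-1 had 10, 16 and 5 counts against 22, 47 and 38. The part that these shares play in the results on other genes was not tested.

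Genes known only by a LOC identifier are given apart. A larger share of them than of named genes was called, with 472 higher and 313 lower of 2244 (35.0%) against 645 higher and 420 lower of 10902 (9.77%), but their median mean count was 42.2 against 546. LOC121108229, a protein-coding gene on chromosome W (441249 to 481522), had 9.05, 7.56 and 20.8 CPM in Control and 580, 341 and 269 CPM in SeMC, the largest increase of an abundant LOC gene. The SeMC libraries differed more than 2-fold among themselves and still lay far above Control. LOC107049129, on chromosome 5 (621762 to 625271) beside NLRP3 and CEND1, had 18.8, 18.8 and 18.1 CPM in Control and 63.6, 72.7 and 66.4 CPM in SeMC, with a log2 fold change of 1.86 (standard error 0.081, edgeR adjusted p = 1.1e-09). LOC107048987 had 2.77, 3.68 and 4.97 CPM in Control and 73.7, 73.6 and 16.8 CPM in SeMC, so SeMC replicate 3 was much closer to Control. The pseudogene LOC121108671 rose from 1.07 ± 0.408 to 16.5 ± 2.07 CPM (SD, n = 3).

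Among the lowered LOC genes, LOC121108224, also on chromosome W, had 11.1, 16.7 and 16.4 CPM in Control and 5.54, 4.35 and 5.64 CPM in SeMC. The lncRNA gene LOC121108294 had 12.4, 12.2 and 9.70 CPM against 3.81, 4.81 and 3.61 CPM, and LOC417973 had 16.2, 15.2 and 16.0 CPM against 6.23, 6.47 and 7.22 CPM. None of these 3 overlapped between the groups. LOC769617, on chromosome 33, fell from 106 ± 9.95 to 59.9 ± 2.48 CPM (SD, n = 3). On chromosome 33, 22 genes were higher and 36 lower of 129 tested (45.0% called, beside 14.1% of all genes). The median log2 fold change there was -0.40, and 125 of the 129 are LOC genes. Their counts were low, with a median mean count of 48.2 over the 129. The lncRNA genes, nearly all of them LOC identifiers, had 242 higher and 161 lower of 1033 (39.0% called), at a median mean count of 30.3. Of all genes, 41.9% were called at 20 to 50 counts and 34.9% at 50 to 100. LOC121109193 and LOC121107763, both lncRNA genes, had the smallest adjusted p of the raised genes after LOC107049129 and NFKB2, with counts of 2, 1 and 6 and of 2, 7 and 2 in Control, and of 205, 154 and 154 and of 172, 151 and 140 in SeMC. The SeMC counts of LOC121109193 are whole multiples of one number, rounded down, so its adjusted p is among those less certain than their value says.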

How the data were processed

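RNA of 3 SeMC (SeMC with PBS) and 3 Control (PBS) libraries was compared, with groups and replicate numbers taken from the sample labels. The authors filtered the reads, aligned them to GRCg7b, the chicken genome, with Hisat2, made per-gene counts with HTSeq and deposited these raw counts for 16161 gene symbols. Tool versions, annotation release and strand setting are not given in the sources used here, so overlapping genes are uncertain: 52.2% of the genes called higher, 54.2% of those called lower and 44.4% of those not called overlap another gene's annotated span. Symbols were matched to the RefSeq annotation of GRCg7b (16154 matched), which gave gene type and 1-based positions.

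The test was that of edgeR 4.0.16 under R 4.3.3 (TMM, filterByExpr with a minimum count of 10, quasi-likelihood test, Benjamini-Hochberg adjustment, FDR under 0.05 and fold change above 1.5). CPM is relative to the TMM-adjusted library size. Depth was 10656332 to 17024392 counts per library, so a gene at 3 counts or fewer in a library was treated as at the floor, and that limit covers counting error alone. LPS libraries served only for the checks of whole-multiple counts, of the spread between replicates and of the SeMC+LPS counts. SeMC+LPS libraries were left out, since in 16160 of 16161 genes their counts equal, in all 3 replicates, the average of LPS and SeMC, rounded down to a whole count.

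The libraries compared, the 43 gene lists and the alternatives were chosen with earlier results of these data known. The genes named were the 15 largest increases and 15 largest decreases among genes called with at least 100 counts on average and no overlap between groups, 6 and 6 for LOC genes, in each list up to 4 members called with a mean of at least 50 counts or, with none called, the 2 with the largest mean count, NFKB2, TXN2, TXNRD1 and GPX1, and the 4 smallest adjusted p in each direction. BLVRA, CROCC, C4BPG, the mitochondrial genes and the further list members, small RNA genes and genes with multiple counts that are named were picked with their values in view. Some genes that the rule names are not reported here.

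The alternatives were DESeq2 1.42.0, limma 3.58.1 (quantile-normalized log2 of the count plus 1), limma-voom, glmTreat, RLE size factors, total library size, no filter, a mean of at least 50 counts, thinning to equal depth, other fold-change minimums, the replicate number as a block, and each replicate left out. A mean of at least 100 counts, and leaving out genes with whole-multiple counts or at the floor in a group, were added after seeing the data. The steps were tested on simulated data. Other steps ran in Python 3.11.15 with numpy 2.4.6, pandas 2.3.3, matplotlib 3.10.9 and scipy 1.17.1. Sequences, promoter motifs, GC content and exonic lengths were not used here.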

Additional observations from a re-analysis of the deposited data

How the results depend on the processing

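Of 1850 genes called (1117 higher, 733 lower, 60.4% higher), glmTreat, which tests against the 1.5-fold minimum, called 700 (512 higher, 188 lower, 73.1% higher). Limma on quantile-normalized values gave 801 higher and 1149 lower (41.1% higher). A mean of at least 50 counts left 863 (508 and 355) and one of at least 100 counts 528 (312 and 216). A fold change above 1.2 gave 4111 (2195 and 1916), no minimum 5172 (2664 and 2508) and a fold change above 2 gave 1093 (714 and 379). Without genes at the floor in a group, 1735 were called (1038 and 697). Leaving out replicates gave 1606 to 1919 genes, with 995 to 1172 higher and 605 to 786 lower. DESeq2, limma-voom, RLE, total library size, thinning and no filter stayed within 1.5 times the count. For same-numbered SeMC and Control libraries, deviations of log CPM from the group mean had correlations of 0.092, 0.0062 and -0.034 across 10840 genes. Differently numbered libraries gave -0.065 to 0.056. Values this small do not decide whether the numbers pair the libraries, and a replicate block gave 1844 genes (1118 and 726).

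Of the 143 named genes, none that was called became called in the opposite direction under these alternatives. The 143 include genes that were not called, such as GPX1, TXN2 and ACTB, which count as kept where they stayed uncalled. RLE size factors lost no call among the 143, DESeq2 lost 8, limma on quantile-normalized values 19 and glmTreat 56. Among the lowered innate defence genes, glmTreat lost the calls of IFIT5, MX1, IFI27L2, AvBD3, TLR3, LY96, TIRAP, FCER1G, MARCO and CFI. It kept those of IL1B, IL10, RSAD2, AvBD6, TIMD4 and ICOSLG. RPS27 lost its call under limma on quantile-normalized values, limma-voom, DESeq2, glmTreat, total library size, a mean of at least 50 counts and the block. Low counts in SeMC limit what can be said of genes with a mean below 100 counts, which were 1322 of the 1850 called.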
